A study of Bos taurus with 2 samples.

Results

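The cathelicidins are a family of antimicrobial peptide genes, and 6 bovine members, CATHL1 to CATHL6, were followed here in Holstein cattle (Bos taurus), in whole blood. Every probe of the array that carries the name of a member, or whose RefSeq target is a transcript of one, was taken, whatever its signal. This gave 12 of 43653 distinct probes, and 6 of 16959 genes named by the probes. The array is an Agilent bovine oligonucleotide array read in 1 colour (Cy3). One array was hybridised with whole blood RNA of low feed efficiency and 1 with whole blood RNA of high feed efficiency. Low feed efficiency stands for a high residual feed intake, that is, more feed eaten than size and production call for. Neither the labels nor the design text give the number of animals behind a sample, or their age, sex or diet. With 1 array per group there is no spread between samples, so no difference below carries a test or a p-value.

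A cathelicidin is made as a precursor with a conserved cathelin domain, followed by a short antimicrobial peptide that differs strongly between members. In cattle the precursors are made mainly by immature myeloid cells of the bone marrow and stored in the large granules of neutrophils. Elastase from other granules of the same cell frees the active peptide. CATHL1 encodes bactenecin, a small cyclic peptide. CATHL2 and CATHL3 encode the proline-rich peptides Bac5 and Bac7, which enter bacteria and act on the ribosome. CATHL4 encodes indolicidin, a tryptophan-rich peptide, and CATHL5 and CATHL6 encode helical peptides that disrupt membranes.

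The genes lie side by side. In the RefSeq gene table of the assembly ARS-UCD2.0, which was used for names and neighbours only, they follow each other on 1 chromosome in the order CATHL4, CATHL1, CATHL3, CATHL2, CATHL6 and CATHL5. Only 2 other entries stand among them, 1 uncharacterised protein-coding gene and 1 pseudogene, neither with a probe of its own. A family this close in sequence can share signal between probes. The array's own annotation lists more than 1 member as target for 2 of the 12 probes: A_73_P063676 for CATHL2 and CATHL3, and A_73_P112816 for CATHL6 and CATHL5. The other 8 probes with a RefSeq target list 1 member each, and 2 probes (1 named CATHL1 and 1 named CATHL4) were designed on single expressed sequence tags. Probe sequences were not used here, so sharing beyond that annotation was not tested.

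All cathelicidin signals were dim, and they were first set against the 153 negative control spots of each array. Intensity here means the median over the pixels of a spot, less a constant background of 25. Negative controls ran between -4 and 9 in low feed efficiency and between -5 and 32 in high feed efficiency, with a median of 2 on both arrays. On the high efficiency array 2 negative spots stood apart at 20 and 32, and the next read 9. The threshold for a probe above background was the negative control median plus 3 robust SDs, or 10.9 for each array. It was passed by 8 of the 12 cathelicidin probes in low feed efficiency and by 6 in high feed efficiency, while 56.5% and 52.7% of all probes passed it in low and high feed efficiency. The 6 probes that passed it on both arrays were 1 for each gene.

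**Figure D1:**
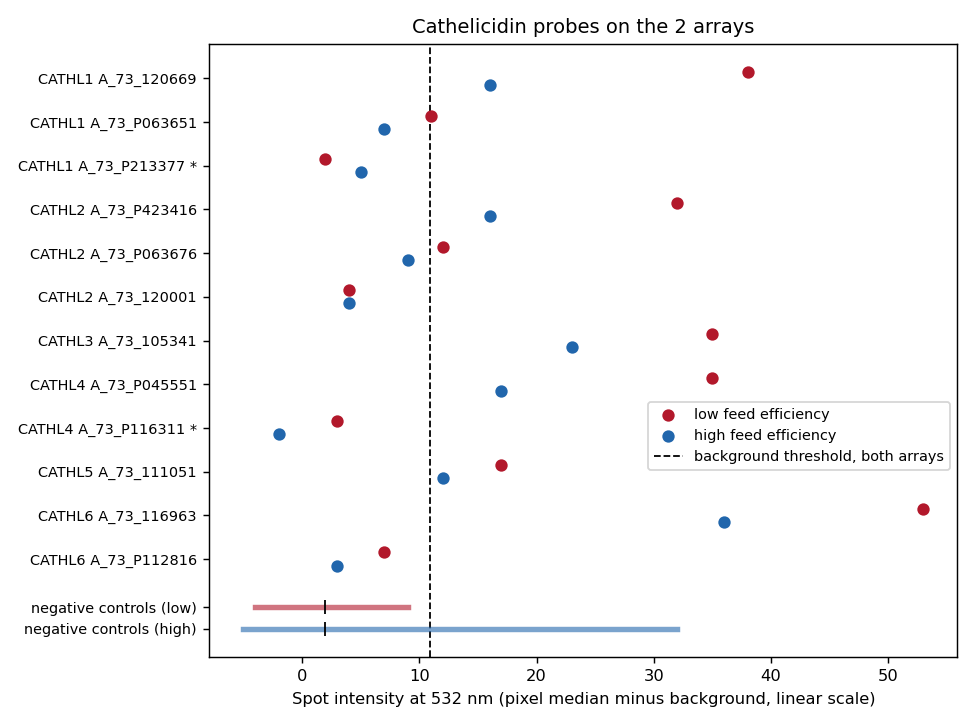
Intensity of the 12 cathelicidin probes (x axis, linear, arbitrary scanner units) in low (red) and high (blue) feed efficiency. An asterisk marks probes designed on a single expressed sequence tag, the dashed line is the background threshold of 10.9, and the 2 bars give the range of 153 negative control spots per array with their median. The brightest probe of each gene read higher in low feed efficiency, and the highest negative control of the high efficiency array reached 32.

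The brightest probe of every member was brighter in low feed efficiency. CATHL1 read 38 on the low-efficiency and 16 on the high-efficiency array (probe A_73_120669), with a pixel SD of 16 and 12 over 80 pixels of each spot. Both spots were flagged good by the scanner software. None of the 153 negative controls reached the low efficiency value, and 2 reached the high efficiency value.

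Of the proline-rich pair, CATHL2 read 32 on the low-efficiency and 16 on the high-efficiency array (probe A_73_P423416, pixel SDs 17 and 12). The high efficiency spot was not flagged good. CATHL3, with a single probe (A_73_105341), read 35 on the low-efficiency and 23 on the high-efficiency array, with pixel SDs of 17 and 13 and both spots flagged good. No negative control of the low efficiency array reached either gene, and on the high efficiency array 2 negative controls reached CATHL2 and 1 reached CATHL3.

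CATHL4, the indolicidin gene, read 35 on the low-efficiency and 17 on the high-efficiency array (probe A_73_P045551, pixel SDs 17 and 14, both flagged good). The helical pair differed in how far it stood clear of background. CATHL6 read 53 on the low-efficiency and 36 on the high-efficiency array (probe A_73_116963, pixel SDs 19 and 17, both flagged good), and was the only member above every negative control on both arrays. CATHL5 read 17 on the low-efficiency and 12 on the high-efficiency array (probe A_73_111051), with neither spot flagged good. The high efficiency spot of CATHL5 was drawn over 12 pixels, against 80 in low feed efficiency. Pixels of a spot are not replicates, so these SDs describe the evenness of a spot only.

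The other 6 probes read at or below the threshold or barely above it, and they give no fold. A second CATHL1 probe (A_73_P063651) read 11 on the low-efficiency and 7 on the high-efficiency array, and the CATHL2 probe shared with CATHL3 read 12 on the low-efficiency and 9 on the high-efficiency array. Both were above background in low feed efficiency only, and the lower bound of the fold was under 1 for each. The remaining CATHL2 probe (A_73_120001) read 4 on both arrays, although the annotation lists the same target transcript as for the CATHL2 probe at 32 and 16. The CATHL6 probe shared with CATHL5 read 7 on the low-efficiency and 3 on the high-efficiency array. The expressed sequence tag probes read 2 on the low-efficiency and 5 on the high-efficiency array for CATHL1, and 3 on the low-efficiency and -2 on the high-efficiency array for CATHL4. Probes of 1 gene therefore differed in whether they detected it at all, for CATHL1, CATHL2, CATHL4 and CATHL6.

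The 75th percentile of all probes was 98 on the low-efficiency and 81 on the high-efficiency array. Intensities were divided by it before the arrays were compared on the log2 scale (low minus high). All 6 members stayed higher in low feed efficiency, although CATHL5 did not with 2 other treatments of background given further on. CATHL1 had the largest difference, 0.97 (1.96-fold), followed by CATHL4 with 0.77 (1.70-fold) and CATHL2 with 0.73 (1.65-fold). CATHL3 had 0.33 (1.26-fold), CATHL6 0.28 (1.22-fold) and CATHL5 0.23 (1.17-fold). The median of the 6 was 0.53, and that of all 10339 genes above background on both arrays was -0.04.

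None of the 6 was at least 2-fold higher and none at least 2-fold lower, as against 0.368% and 0.571% of all genes. At least 1.5-fold higher were 3 of the 6, CATHL1, CATHL4 and CATHL2, where 2.68% of all genes were. Above 0 were 6 of 6, where 44.4% of all genes were. The 6 share sequence, position and cell of origin and were read on the same pair of arrays, so they are not 6 independent observations. In a blood sample, fewer cells of a type and less RNA per cell cannot be told apart.

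Dim genes scatter more than bright ones, and the members were therefore also set beside all 2466 genes whose mean level over both arrays lay between that of CATHL5 and that of CATHL6. The difference had a median of 0.0075 over these genes, with quartiles of -0.22 and 0.24 and with the middle 90% between -0.62 and 0.66. CATHL1, CATHL4 and CATHL2 lay above this range. CATHL3 and CATHL6 lay above the upper quartile but within the range, and CATHL5 lay between the quartiles. Of the 2466 genes 6.77% were at least 1.5-fold higher, more than the 2.68% of all genes.

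**Figure D2:**
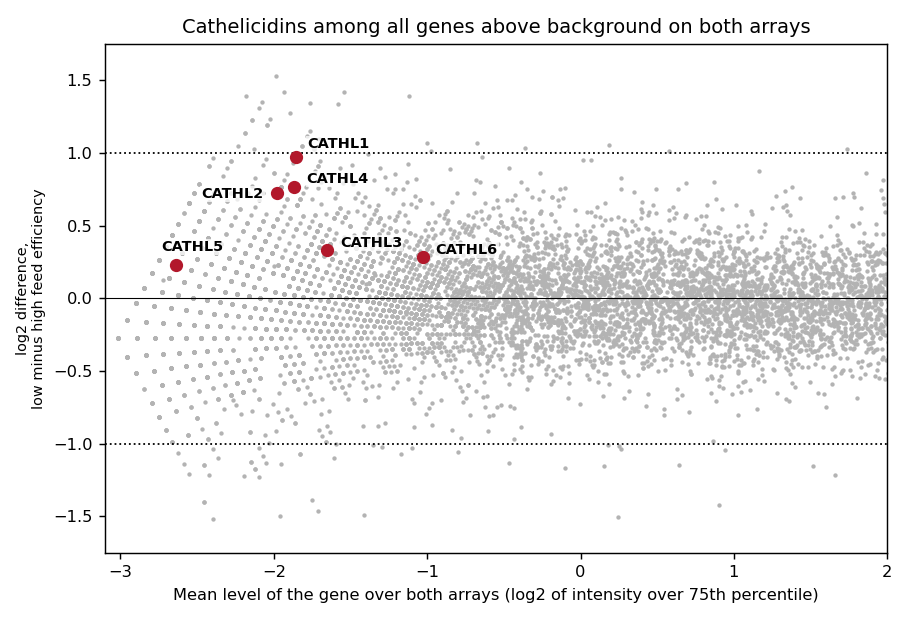
Log2 difference between the arrays (low minus high efficiency) (y axis) against the mean level over both arrays (x axis, log2 of intensity over the array's 75th percentile), 1 point per gene, with the 6 cathelicidins in red and dotted lines at 2-fold. The window holds 7089 of the 10339 genes, and 3250 lie outside it. As reported, the members sit at the dim end, all above 0 (CATHL5 not with 2 other treatments of background), with CATHL1, CATHL4 and CATHL2 near the upper edge of the cloud.

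Spots that repeat 1 probe give the error of measurement within an array, though not that between animals. Over 14 probes with repeated spots (51 spots), no brighter on average than the brightest member spot at 53, the SD of the log2 difference was 0.23. Only spots above background on both arrays were counted, so this SD may understate the error of the dimmest readings. The differences of CATHL1, CATHL4 and CATHL2 were over 3 times this SD, while those of CATHL3, CATHL6 and CATHL5 were between 1.01 and 1.46 times it. One spike-in control is RNA added to each sample in an amount not given in the sources used here. Its median over 32 spots was 63.5 on the low-efficiency and 66 on the high-efficiency array, brighter than every member. Its dimmest spot on the high-efficiency array read 47, where CATHL1, CATHL4 and CATHL2 read 16, 17 and 16. Dim genes scatter more than bright ones, so the spread of this control may understate theirs. Around its own median, its log2 difference ran from -0.56 to 0.27 over these spots, with an SD of 0.21. Measured from the median of all genes, CATHL1 had 1.01, CATHL4 0.81, CATHL2 0.76, CATHL3 0.37, CATHL6 0.32 and CATHL5 0.27. CATHL5 thus reached no further than the highest spike-in spot, to 2 decimals. Another spike-in control was dimmer, with a median of 11 on the low-efficiency and 9 on the high-efficiency array. Its 32 spots read from 4 to 18 on the low-efficiency and from 2 to 18 on the high-efficiency array. Of these spots 8 were above background on both arrays. The high-efficiency readings of CATHL1, CATHL2, CATHL4 and CATHL5 lay within the range of this dimmer control.

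**Figure D3:**
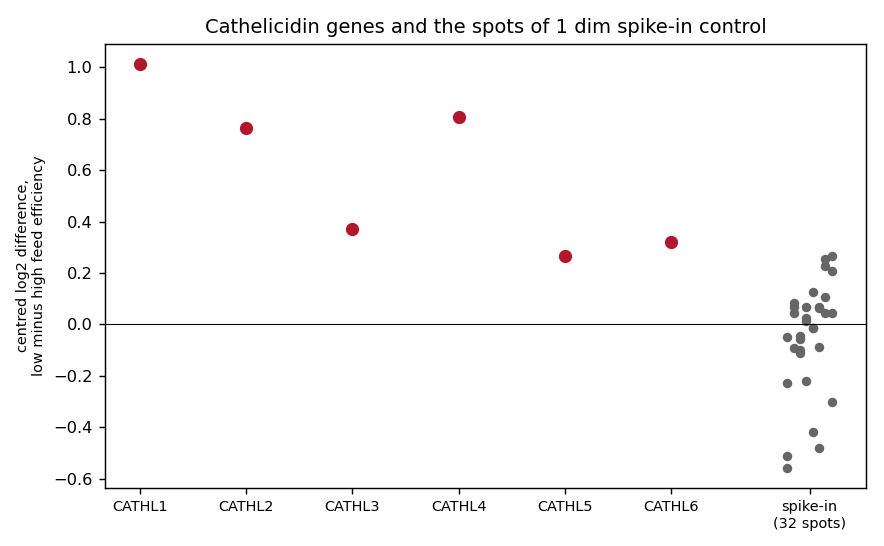
Log2 difference between the arrays (low minus high efficiency) for the 6 cathelicidins, measured from the median of all genes (red), and for the 32 spots of 1 dim spike-in control, measured from their own median (grey). CATHL1, CATHL2 and CATHL4 stand well above the spike-in spots, which run from -0.56 to 0.27, and CATHL5 sits level with the highest of them. The median of the control was brighter than every member on both arrays, so its spread may understate that of the members.

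The size of the differences depended on how background was treated. Normexp background correction adds an offset of 50. It was run on pixel means in place of medians, a change that by itself gave CATHL1 0.86 and CATHL5 0.14. With normexp CATHL1 had 0.21, CATHL4 0.12, CATHL2 0.11, CATHL3 0.076, CATHL6 0.073 and CATHL5 -0.079. With no background subtracted CATHL1 had 0.41 and CATHL5 -0.032. Both settings add a constant to dim signals, which shrinks their ratio by construction. With the local background of each spot subtracted, a setting chosen after the data were seen, CATHL2 had 0.88, CATHL1 0.79, CATHL4 0.64, CATHL5 0.53, CATHL3 0.46 and CATHL6 0.43. CATHL1 was at least 2-fold higher under 3 of 15 alternatives and CATHL2 and CATHL4 under 1 each, scaling on spike-in controls. That scaling gave CATHL1 1.34, CATHL4 1.13 and CATHL2 1.09, and raised every difference given here, that of the median gene included, by 0.36.

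**Figure D4:**
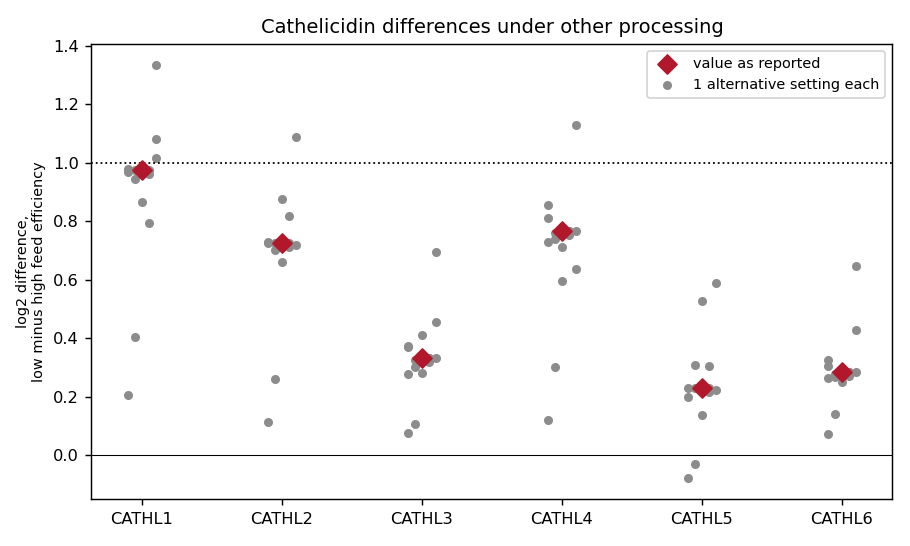
Log2 difference between the arrays (low minus high efficiency) (y axis) of each cathelicidin as reported (red diamonds) and under each alternative setting that gave it a value (grey points, 14 to 16 per gene), with a dotted line at 2-fold. CATHL5 lies below 0 under 2 alternatives, at -0.079 and -0.032, and the other 5 genes lie above 0 under all of theirs.

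The nearest gene with a symbol on that side of the family, CAMP (also called CATHL7), lies 2 unnamed entries from CATHL4. It encodes a further bovine cathelicidin, and 2 probes read it. They gave 5 and 3 in low feed efficiency, against 6 and 2 in high feed efficiency, below background on both arrays. Of the 10 nearest protein-coding genes with a symbol, 5 on each side and CAMP among them, 5 were above background on both arrays. None of these 5 was higher in low feed efficiency, where 44.4% of all genes were. CSPG5 had a log2 difference of -0.04, CCDC51 -0.06, DHX30 -0.12, MAP4 -0.35 and NME6 -0.39, the last with another probe at 0.05. Scaling on spike-in controls, with the median of all genes at 0.32, put 4 of the 5 above 0, though below the cathelicidins. The neighbours were chosen after the values of the members were known.

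Elastase was listed with 5 other genes of the same cells, PRTN3, AZU1, CTSG, CTSC and MPO. Of these 6 genes 4 had a probe and 3 were above background on both arrays, with none at least 2-fold apart. ELANE, the elastase gene, read 394 on the low-efficiency and 284 on the high-efficiency array, a log2 difference of 0.20 (other probe 0.07). CTSC, which activates these proteases, read 1537 on the low-efficiency and 1261 on the high-efficiency array (0.01). MPO, the peroxidase of the azurophil granules, read 60 on the low-efficiency and 52 on the high-efficiency array (-0.07), and the cathepsin G gene CTSG read 4 on the low-efficiency and 7 on the high-efficiency array, below background. The median difference of ELANE, CTSC and MPO was 0.01, against -0.04 for all genes.

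Other granule proteins of neutrophils numbered 17, of which 16 had a probe and 13 were measured, none at least 2-fold apart. Their median log2 difference was 0.09, with 11 of 13 above 0, where 44.4% of all genes were. BPI, which binds bacterial endotoxin, lay farthest from 0 at -0.57 (227 on the low-efficiency and 279 on the high-efficiency array). The brightest, the lysozyme gene LYZ and the arginase gene ARG1, had 0.32 and 0.08, each with another probe below 0. Chosen after their values were seen, as the highest of the 13, were OLFM4, TCN1 and LTF. The olfactomedin gene OLFM4 had 0.49 (80 on the low-efficiency and 47 on the high-efficiency array). The vitamin B12 binder TCN1 had 0.49 (1434 on the low-efficiency and 843 on the high-efficiency array). The lactoferrin gene LTF had 0.41 (133 on the low-efficiency and 83 on the high-efficiency array), with its 3 probes from 0.16 to 0.62.

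Antimicrobial peptides and proteins outside the cathelicidin family had a median of 0.10 over 15 measured of 25 listed genes. Of these 15, 10 lay above 0, where 44.4% of all genes did, and none was at least 2-fold apart. S100A7, the psoriasin gene, lay farthest from 0 with 0.95 (other probe 0.51). Its level was as dim as the members, 42 on the low-efficiency and 18 on the high-efficiency array. The brightest genes of this list were the calgranulins S100A12, at 0.22, and S100A8, at 0.10. Among beta-defensin genes, picked with their values in view, DEFB4A had 0.23 and DEFB5 0.22, while DEFB7 had -0.16 and DEFB10 -0.24. TAP, the tracheal antimicrobial peptide gene, read 14 on the low-efficiency and 8 on the high-efficiency array and was above background in low feed efficiency only. Antimicrobial genes thus took both signs, with the defensins divided.

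**Figure D5:**
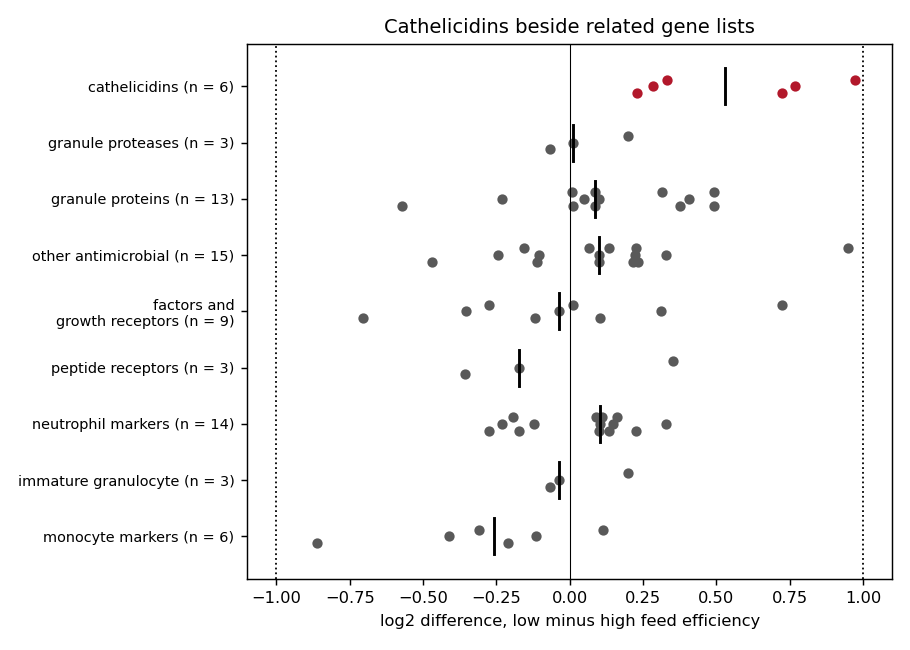
Log2 difference between the arrays (low minus high efficiency) (x axis) for the measured members of the cathelicidin family (red) and of 8 lists (grey), 1 point per gene, with the median as a black bar and dotted lines at 2-fold. The cathelicidin median is 0.53, the medians of the neutrophil and granule lists lie at 0.10 and 0.09, and that of monocyte markers lies at -0.26. Some genes stand in more than 1 list.

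Transcription factors and growth factor receptors of granulocytes took both signs, with a median of -0.04 and 4 of 9 above 0, where 44.4% of all genes were. RUNX1 had 0.73 at 24 on the low-efficiency and 12 on the high-efficiency array, both near background. CEBPB, which takes part in emergency granulocyte production, lay nearly as far the other way at a brighter level, with -0.70 (1134 on the low-efficiency and 1527 on the high-efficiency array). The 3 probes of CEBPB ran from -0.70 to -0.08. CEBPB was named after its value was seen. SPI1 and CEBPA, the brightest, had -0.12 and -0.35. CEBPE, which drives granule genes late in granulocyte maturation, read 119 on the low-efficiency and 101 on the high-efficiency array (-0.04), and the vitamin D receptor gene VDR, through which the human cathelicidin gene is induced, read 18 on both arrays (-0.27). Of 9 receptors and partners of cathelicidin peptides known from human or mouse, 3 were measured, with a median of -0.17. TLR4 had -0.36, with its 3 probes between -0.48 and 0.53, CXCR2 had -0.17, and IGF1R, near background at 17 on the low-efficiency and 11 on the high-efficiency array, had 0.35.

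Of 15 markers of mature neutrophils 14 were measured, and 9 of the 14 lay above 0, where 44.4% of all genes did. Their log2 differences ran from -0.27 to 0.33, with a median of 0.10 and a mean of 0.03. VNN2 lay farthest from 0 at 0.33, and the brightest were S100A12 and S100A8. The summed level of the 14 was 977 on the low-efficiency and 876 on the high-efficiency array, in units of each array's 75th percentile. Most of it came from the calgranulins S100A12, S100A8 and S100A9, and the other 11 summed to 217 on the low-efficiency and 207 on the high-efficiency array. The CD177 probe read 2 on the low-efficiency and 4 on the high-efficiency array, below background. Of 10 markers of immature granulocytes, the cells that make cathelicidin transcripts, 5 had a probe under the name listed and 3 were measured (ELANE, CEBPE and MPO). Their median was -0.04 and their summed level was 5.85 on the low-efficiency and 5.40 on the high-efficiency array. Without ELANE, which made up most of it, the direction of the sum turned, with 1.83 on the low-efficiency and 1.89 on the high-efficiency array. The CTSG and RNASE2 probes read below background. The summed level of the 6 cathelicidins was 2.14 on the low-efficiency and 1.48 on the high-efficiency array. The part of either cell type in the cathelicidin differences was not tested. Markers of other blood cells were present, with a median of -0.26 over 6 monocyte, -0.13 over 6 T cell, -0.29 over 5 NK cell and -0.05 over 3 platelet markers. Farthest from 0 were CSF1R at -0.86 among monocyte, LCK at -0.34 among T cell, NKG7 at -0.65 among NK cell and ITGA2B at -0.45 among platelet markers. Of the brightest, FCN1 had -0.41 (other probe -0.13), CD3E -0.16 (other probe 0.39), GZMB -0.18 (4 probes from -0.64 to -0.15), PF4 -0.05 and PPBP 0.18. Erythroid markers were divided, and the median of 0.13 over 5 of them stood beside a mean of -0.21. ALAS2, which starts heme synthesis in red cell precursors, was the 1 gene of any list at least 2-fold apart, with -1.42 (112 on the low-efficiency and 248 on the high-efficiency array). Of all genes 0.571% were at least 2-fold lower. AHSP, the chaperone of alpha globin, had -0.36, while the globin genes HBA, HBB and HBG had 0.13, 0.26 and 0.33. Of the eosinophil markers CCR3 alone was above background on both arrays, with -0.80 (151 on the low-efficiency and 218 on the high-efficiency array). SIGLEC8 read 17 on the low-efficiency and 9 on the high-efficiency array and was above background in low feed efficiency only. EPX read 4 on the low-efficiency and 10 on the high-efficiency array, below background.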

How the data were processed

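Whole blood RNA of 1 sample per group was labelled with Cy3, per the labels. The deposited files hold spot intensities from GenePix Pro 6.1.0.4 and a GenePix 4000B scanner, both arrays in 1 image, less a background taken from negative controls and with no normalization, per the file headers. They also hold a percent of saturated pixels (no cathelicidin spot had any) and a score that flags each spot, 100 where good, -50 where not found and 0 where neither, per the file headers. Agilent Feature Extraction is the tool in the submitters' processing notes. The log2 values of the authors' deposited table have a normalization not given in the sources used here.

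Spots flagged as not found although above background (408 in low, 283 in high feed efficiency) were removed from both arrays, which kept 43096 probes. Repeated spots were averaged. Probes took their gene from the RefSeq accession (26743), the symbol (5971), a synonym (141) or the array alone (1662), and 9136 stayed unnamed. Among probes above background on both arrays, the brightest stood for its gene. Values were computed with Python 3.11.15, and normexp with limma 3.58.1. The number of arrays limits the precision. Every probe of a member is named. Of each other list, the rule names members at least 2-fold apart, or else the member farthest from 0, and the 2 brightest. Other genes of the lists were named with their values in view. One list of cell markers is not reported here. The members and lists were chosen with earlier results of these data known.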

Additional observations from a re-analysis of the deposited data

How the results depend on the processing

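Of 16 alternatives for the member differences, 2 were added after the data were seen. The median of the measured cathelicidins, 0.53 as reported, was 0.095 with normexp background correction, 0.20 with no background subtracted and 0.89 with spike-in scaling. Measured from the median of all genes it was between 0.12 and 0.63 under all 16. CATHL5 turned to -0.079 with normexp and -0.032 with no background subtracted. At a cut of 5 robust SDs only CATHL3, CATHL4 and CATHL6 were measured, so 3 in place of 6 probes lay above 0. Cathelicidin probes above background, 14 over both arrays, numbered 9 at the cut of 5 robust SDs and 8 among spots flagged good. With the highest negative control as the cut they numbered 9, with 8 on the low-efficiency and 1 on the high-efficiency array. That cut was 9 on the low-efficiency and 32 on the high-efficiency array, so these 2 counts rest on unlike thresholds. Genes at least 2-fold apart, 97 as reported, numbered 22 with no background subtracted, 237 with spike-in scaling, 150 when 1 array sufficed, 53 at 5 robust SDs, 22 among spots flagged good, 159 with local background, 602 at 1.5-fold and 10 at 4-fold. In the 5 lists of related genes, with 3, 13, 15, 9 and 3 genes measured, none was 2-fold apart as reported. With spike-in scaling 2 were (S100A7 and RUNX1), where 237 of all 10339 genes were. At 1.5-fold 3 were (CEBPB as well), where 602 of all 10339 genes were. Every cathelicidin difference rests on signals at most 4.86 times the background threshold. No paired analysis was possible because each group had 1 array.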

Other observations

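The authors' deposited table gave values for the cathelicidin probes that do not belong to them as its rows stand. Spearman's rho between the authors' deposited table and the scanner intensities was 0.077 on the low-efficiency and 0.072 on the high-efficiency array across 43652 probes as deposited, and 0.9996 and 0.9995 once each value was taken from the row above (43651 probes, which are not independent replicates). Read as deposited, the authors' deposited table gave CATHL1 a log2 difference of -0.08, CATHL2 -0.12, CATHL3 -0.20, CATHL4 -1.66, CATHL5 -1.16 and CATHL6 -0.70 at the probes described above, all lower in low feed efficiency. With the row moved, the authors' deposited table gave 0.96, 0.71, 0.28, 0.71, 0.23 and 0.25 for the same genes in the same order, all higher in low feed efficiency.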
